A study of Mus musculus with 12 samples.

Results

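Growth hormone and insulin-like growth factor 1 (IGF1) form a hormone axis that runs through the liver, and 10 of its genes were described here in the livers of WT and *Maf1*-/- mice. The genes were chosen by symbol as members of the pathway (*Ghr*, *Jak2*, *Stat5a*, *Stat5b*, *Socs2*, *Bcl6*, *Igf1*, *Igfals*, *Igfbp2* and *Igfbp4*), and all 10 were found among the 13304 genes of the RNA-seq table. MAF1 is a repressor of RNA polymerase III. The groups were 7 WT mice and 5 mice lacking *Maf1*, all of strain C57Bl/6J and aged 12-14 weeks, kept on chow, fasted overnight and given food again for 4 h. Each library came from total RNA of a piece of perfused liver of 1 mouse, and ribosomal RNA was depleted. The mice lack *Maf1* in the whole animal, so effects of its loss in liver and in other organs, the pituitary included, cannot be told apart. The sex of the mice is not given in the labels, but 4 Y chromosome genes had reads in all 12 libraries, as in male mice.

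In liver, growth hormone binds its receptor at the cell surface, the kinase JAK2 bound to that receptor is activated, and JAK2 phosphorylates the transcription factors STAT5A and STAT5B. STAT5 then enters the nucleus and switches on target genes, among them *Igf1*, *Igfals* and the inhibitors *Socs2* and *Cish*. Liver IGF1 is the main source of circulating IGF1, which travels bound to IGF binding proteins, and the axis is known to be dampened by fasting and restored by feeding.

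Reads of *Maf1* fitted the labels, with 254 to 534 per WT library and 5 to 52 per *Maf1*-/- library, and its neighbour *Gm35339* had 31 to 80 and 1406 to 2440 reads. These were the only 2 genes to pass in the comparison of all 12 libraries, of 13304 tested (0.0150%). A gene was taken as passing with an adjusted p below 0.01 (limma) together with a log2 fold change above 0.5 in either direction. The number passing depended on the fit, as it was 1076 with 1 factor for residual variation and 904 without the library WT 2. Depth was 34709661 to 55787438 reads assigned to genes per library. All 8 hepatocyte markers were measured with at least 22192 reads in every library, and their summed level was 111900 to 143900 CPM in WT and 120100 to 159000 in *Maf1*-/-. One library stood apart. Slopes on gene GC content were fitted to each library's values minus the gene's mean over all 12 libraries. A slope is thus relative to the other libraries. It was -0.569 log2 per 10 GC points in WT 2. The remaining 6 WT libraries spanned 0.143 to 0.35 and the 5 *Maf1*-/- libraries -0.541 to 0.077. The fold change of each of the 10 axis genes is therefore also given without WT 2 and after removal of GC and length trends. Outside WT 2 the slopes of WT and *Maf1*-/- libraries did not overlap. The correction thus cannot tell a genotype effect that follows GC content from a trend of the libraries.

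None of the 10 genes passed in the comparison of all libraries. At an unadjusted p under 0.05, 2 of the 10 (20%) were counted, *Igfbp4* lower and *Jak2* higher in *Maf1*-/- liver, beside 23.1% of all genes (13.2% lower and 9.90% higher). The share among the axis genes was thus close to the background. Of the 10 log2 fold changes 7 were negative, beside 7035 of all 13304 genes. The median of the 10 was -0.41, beside -0.03 over all genes. The median exon GC content was 52.28% for the 10 and 49.53% for all genes with a GC content. No gene had groups that did not overlap, beside 0.586% of all genes. In bulk liver, fewer cells of a type and less RNA per cell cannot be told apart.

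**Figure D1:**
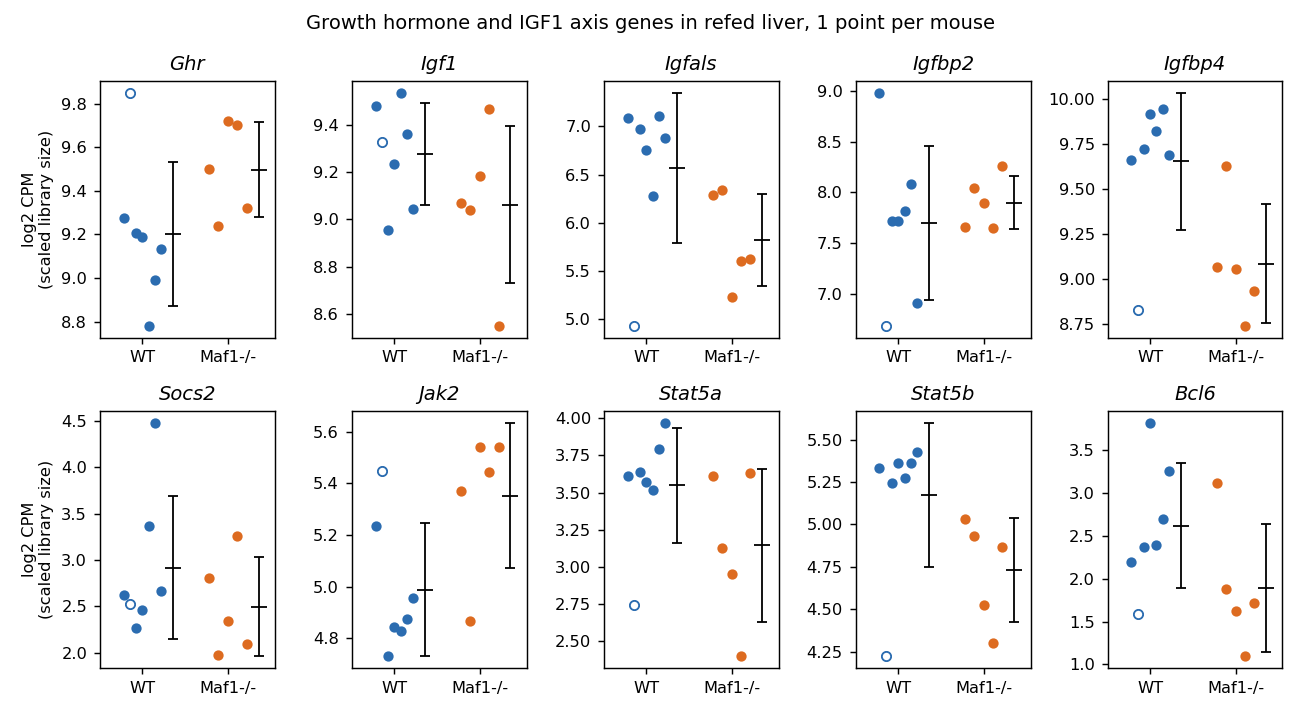
Level of each axis gene in every library (y axis, log2 CPM; each panel has its own range), with WT in blue, *Maf1*-/- in orange and WT 2 as an open circle. Bars show the mean and SD of 7 WT and 5 *Maf1*-/- libraries. The WT and *Maf1*-/- points overlap for all 10 genes, and for *Stat5b* and *Igfbp4* the overlap is due to WT 2.

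Promoter windows from RefSeq (GRCm38.p6, 250 bases before to 50 after a start) were read for the letters of the STAT5 motif, TTCNNNGAA, which is its own reverse complement and so covers both strands. Of 32851 windows of 300 bases, 2726 (8.298%) held it. Among the axis genes, 9 had windows (16 in all), and 4 windows of 2 genes, *Igfals* and *Bcl6*, held it. The windows of *Ghr*, *Jak2*, *Stat5a*, *Stat5b*, *Igf1*, *Igfbp2* and *Igfbp4* did not hold these letters. The window of each gene with the motif nearest its start is shown, since *Igfals* is a known STAT5 target and BCL6 is a repressor known to bind STAT5 motifs, with the motif in capitals.
Igfals, chr17:24877981-24878280, plus strand: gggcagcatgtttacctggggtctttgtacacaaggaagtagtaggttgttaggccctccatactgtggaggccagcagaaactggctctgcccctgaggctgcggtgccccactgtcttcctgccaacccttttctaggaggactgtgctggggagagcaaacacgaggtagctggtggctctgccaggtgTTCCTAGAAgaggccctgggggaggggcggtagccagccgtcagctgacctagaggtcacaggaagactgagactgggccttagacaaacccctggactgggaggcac
Bcl6, chr16:23981234-23981533, minus strand: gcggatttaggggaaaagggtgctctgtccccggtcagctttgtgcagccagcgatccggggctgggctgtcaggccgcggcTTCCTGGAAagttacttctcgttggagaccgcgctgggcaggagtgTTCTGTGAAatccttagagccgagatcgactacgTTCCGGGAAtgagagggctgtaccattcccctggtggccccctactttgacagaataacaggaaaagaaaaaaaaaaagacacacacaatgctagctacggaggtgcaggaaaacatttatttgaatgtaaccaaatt
The *Igfals* motif begins 58 bases before the start of the window shown, which lies wholly before the gene's listed position (chr17:24878770-24882008). A further *Igfals* window holds 1 motif beginning 236 bases before its start. The remaining *Igfals* window, chr17:24878497-24878796, covers the first base of the listed gene and holds none. The *Bcl6* window shown lies inside the listed gene (chr16:23965052-23988852) and holds 3, beginning 168, 122 and 88 bases before its start. The other *Bcl6* window, chr16:23988803-23989102, covers the first base of the listed gene and holds 1, beginning 118 bases before its start. A match is a description of the letters only.

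Of the genes that carry the signal, the receptor and its kinase had positive fold changes and both STAT5 genes negative ones, none of them passing. *Ghr*, the growth hormone receptor (chr15:3317760-3583492, GRCm38), lay between 8.78 and 9.85 in WT, in log2 CPM (reads scaled to library size, not divided by gene length), with a median of 9.19. In *Maf1*-/- it was at 9.50, 9.24, 9.72, 9.70 and 9.32. All 5 *Maf1*-/- values were above the WT median, while the highest value of all was WT 2. The mean was 9.20 ± 0.33 (SD, n = 7) in WT and 9.50 ± 0.22 (SD, n = 5) in *Maf1*-/-. The log2 fold change of *Ghr* was 0.29 (SE 0.17, limma adjusted p = 0.27, exact permutation p = 0.11). Without WT 2 it was 0.40 (limma adjusted p = 0.032), and after GC and length correction 0.10 (SE 0.12).

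*Jak2*, the kinase that carries the signal of the receptor (chr19:29251828-29313080), lay between 4.73 and 5.45 in WT with a median of 4.87. It was at 5.37, 4.87, 5.54, 5.45 and 5.54 in *Maf1*-/-. Of the 5 *Maf1*-/- libraries 2 were above every WT library, and *Maf1*-/- 2 lay apart from the others within the WT range. On the log2 scale *Jak2* differed by 0.36 (SE 0.16, limma adjusted p = 0.20, exact permutation p = 0.039). It was 0.44 without WT 2 (limma adjusted p = 0.033) and 0.22 after GC and length correction (SE 0.12). With libraries weighted by their fit it passed, at 0.56 (limma adjusted p = 0.0033), in a fit where 15.2% of all genes passed.

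*Stat5a* and *Stat5b* encode the near-identical transcription factors of the pathway and lie side by side on chromosome 11, pointing away from each other with 8626 bases between them. Reads shared by the pair could be divided or lost in counting, so the level of each is uncertain to that extent. *Stat5b* (chr11:100780731-100850724), the main form in liver, was at 5.03, 4.93, 4.53, 4.30 and 4.87 in *Maf1*-/-. In WT it lay between 4.22 and 5.42 with a median of 5.33. WT 2 was the lowest library of all, and the other 6 WT libraries, at 5.25 or more, were above every *Maf1*-/- library. The *Stat5b* log2 fold change was -0.44 (SE 0.21, limma adjusted p = 0.22, exact permutation p = 0.083). It passed without WT 2, at -0.60 (SE 0.13, limma adjusted p = 0.0092), and after GC and length correction it was -0.14 (SE 0.11).

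*Stat5a* (chr11:100859351-100885169) was lower in level, at 2.74 to 3.97 in WT with a median of 3.61. In *Maf1*-/- it was at 3.61, 3.13, 2.95, 2.40 and 3.63. The lowest library was *Maf1*-/- 4 and the next was WT 2, and 3 of 5 *Maf1*-/- libraries were below the WT median. The log2 fold change of *Stat5a* was -0.40 (SE 0.24, limma adjusted p = 0.29, exact permutation p = 0.16), -0.22 without *Maf1*-/- 4, -0.54 without WT 2 (limma adjusted p = 0.064) and -0.06 after GC and length correction (SE 0.16). Its last 72 bases overlap *Stat3* on the other strand, and the strand setting of the counting is not given in the sources used here.

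Both brakes of the axis were expressed at low levels and varied widely. *Socs2*, the suppressor of cytokine signalling that limits growth hormone action (chr10:95385362-95417180), rested on 147 to 872 reads. It lay between 2.27 and 4.48 in WT with a median of 2.63, and at 2.81, 1.97, 2.34, 3.26 and 2.09 in *Maf1*-/-. WT 6 was highest, and 2 *Maf1*-/- libraries were below every WT library. For *Socs2* the log2 fold change was -0.42 (SE 0.36, limma adjusted p = 0.45, exact permutation p = 0.35), -0.16 without WT 6, -0.49 without WT 2 (limma adjusted p = 0.35) and -0.43 after GC and length correction (SE 0.37).

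*Bcl6*, a repressor that opposes STAT5 at shared sites in mouse liver (chr16:23965052-23988852), rested on 78 to 502 reads. It lay between 1.59 and 3.82 in WT with a median of 2.39. In *Maf1*-/- it was at 3.12, 1.88, 1.63, 1.10 and 1.72. *Maf1*-/- 1 was within the upper WT values, while the other 4 were below the WT median. The log2 fold change of *Bcl6* was -0.73 (SE 0.39, limma adjusted p = 0.25, exact permutation p = 0.12). It was -0.90 without WT 2 (limma adjusted p = 0.083) and -0.64 after GC and length correction (SE 0.36).

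*Igf1*, the hormone itself (chr10:87858265-87937042), was among the steadier genes. It lay between 8.96 and 9.54 in WT with a median of 9.33, and at 9.07, 9.04, 9.18, 9.47 and 8.55 in *Maf1*-/-. The lowest value was *Maf1*-/- 5, and 4 of 5 *Maf1*-/- libraries were below the WT median. The mean was 9.28 ± 0.22 (SD, n = 7) in WT and 9.06 ± 0.33 (SD, n = 5) in *Maf1*-/-. The log2 fold change of *Igf1* was -0.21 (SE 0.16, limma adjusted p = 0.37, exact permutation p = 0.20). Without *Maf1*-/- 5 it was -0.087, and without WT 2 -0.21 (limma adjusted p = 0.35). It was -0.44 after GC and length correction (SE 0.15, unadjusted p = 0.0092, limma adjusted p = 0.22), beside 17.8% of all genes at an unadjusted p under 0.05 in that fit. *Igf1* overlaps the antisense gene *Igf1os* by 5117 bases, and reads of both cannot be told apart if the counting ignored strand.

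*Igfals*, the acid-labile subunit that holds IGF1 in a long-lived complex in blood (chr17:24878770-24882008), had the most negative fold change of the 10 with all libraries and no correction, close to *Bcl6*. In *Maf1*-/- it was at 6.29, 6.34, 5.23, 5.60 and 5.63, and in WT it lay between 4.93 and 7.11 with a median of 6.88. WT 2 was the lowest library of all, and all 5 *Maf1*-/- libraries were below the WT median. The mean was 6.57 ± 0.78 (SD, n = 7) in WT and 5.82 ± 0.48 (SD, n = 5) in *Maf1*-/-. The *Igfals* log2 fold change was -0.75 (SE 0.36, limma adjusted p = 0.22, exact permutation p = 0.092). It passed without WT 2, at -1.03 (SE 0.22, limma adjusted p = 0.0091), and after GC and length correction it was -0.25 (SE 0.17).

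*Igfbp4*, a binding protein that mostly inhibits IGF action (chr11:99041244-99054392), was the most abundant of the 10 per exon length. In WT it lay between 8.83 and 9.95 with a median of 9.73, and in *Maf1*-/- at 9.07, 9.63, 9.06, 8.74 and 8.94. WT 2 lay among the *Maf1*-/- libraries, while the other 6 WT libraries, at 9.66 or more, were above all of them. The mean was 9.66 ± 0.38 (SD, n = 7) in WT and 9.09 ± 0.33 (SD, n = 5) in *Maf1*-/-. The log2 fold change of *Igfbp4* was -0.57 (SE 0.20, limma adjusted p = 0.19, exact permutation p = 0.040). It passed without WT 2, at -0.71 (SE 0.14, limma adjusted p = 0.0080), and after GC and length correction it was -0.13 (SE 0.11).

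*Igfbp2*, a binding protein known to be held down by growth hormone and insulin (chr1:72824503-72852474), had the widest range in WT, between 6.69 and 8.98 with a median of 7.72. In *Maf1*-/- it was at 7.66, 8.04, 7.89, 7.65 and 8.26, inside the WT range throughout. WT 1 was the highest library and WT 2 the lowest. For *Igfbp2* the log2 fold change was 0.20 (SE 0.32, limma adjusted p = 0.70, exact permutation p = 0.60). It was 0.41 without WT 1, 0.066 without WT 7, 0.11 without *Maf1*-/- 5 and 0.03 without WT 2 (limma adjusted p = 0.95). After GC and length correction it was 0.67 (SE 0.26, unadjusted p = 0.023, limma adjusted p = 0.24).

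Without WT 2, 3 of the 10 genes passed (*Igfals*, *Igfbp4* and *Stat5b*, all lower in *Maf1*-/-), beside 6.79% of all genes, and 7 had an unadjusted p under 0.05, beside 43.5%. The groups then did not overlap for 2 genes, *Igfbp4* and *Stat5b*, beside 12.6% of all genes. With WT 2 left out and GC and length corrected as well, none passed, beside 0.0240% of all genes, and 5 had an unadjusted p under 0.05, beside 28.9%. With library weights 4 genes passed, the same 3 and *Jak2*, beside 15.2% of all genes, and 5 had an unadjusted p under 0.05, beside 50.4%. With 1 residual factor 2 genes passed, *Igfals* and *Igfbp4*, beside 8.09%, and 7 had an unadjusted p under 0.05, beside 41.4%. After GC and length correction none passed, beside 0.00801%, and 2 had an unadjusted p under 0.05 (*Igf1* lower and *Igfbp2* higher), beside 17.8%. With that correction and 1 residual factor none passed, beside 0.761%, and 3 had an unadjusted p under 0.05, beside 28.3%. With WT 2 left out and the correction made, *Igf1* was at -0.50 (limma adjusted p = 0.055) and *Igfals* at -0.37 (limma adjusted p = 0.097).

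**Figure D2:**
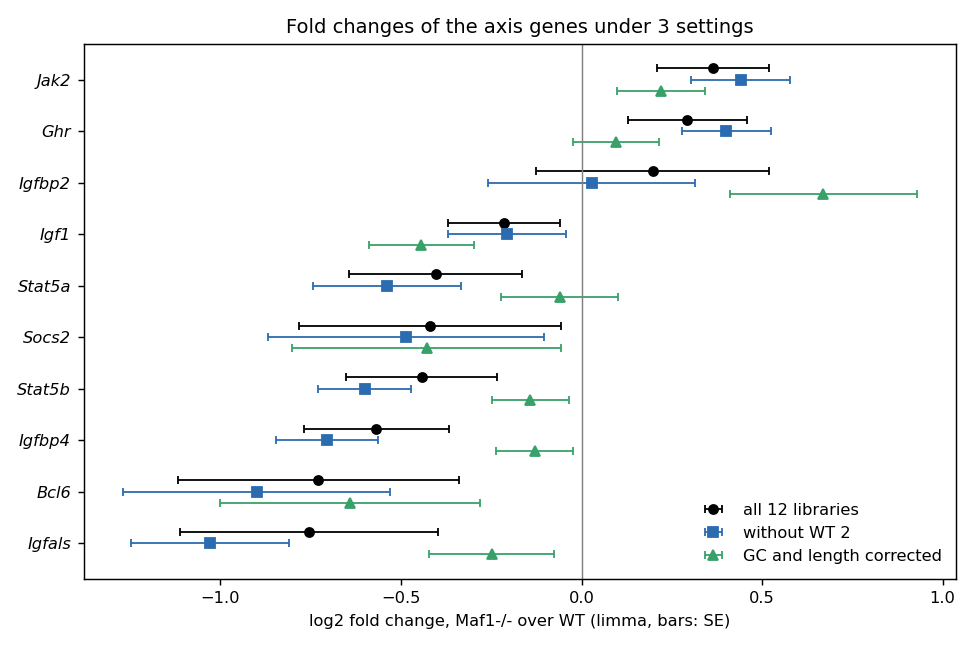
Log2 fold change of each axis gene, *Maf1*-/- over WT (x axis; points are limma estimates and bars 1 SE), with all 12 libraries, without WT 2, and after GC and length correction. *Igfals*, *Igfbp4* and *Stat5b* lie at -0.75, -0.57 and -0.44 with all libraries and at -0.25, -0.13 and -0.14 after correction, while *Igf1* moves from -0.21 to -0.44.

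The fold changes of the axis genes are set here beside the trend with GC content. Over all genes the median log2 fold change went from 0.26 in the lowest of 10 bins of exon GC content to -0.53 in the highest. *Ghr* (GC 42.0%), *Igfbp4* (58.1%) and *Stat5a* (55.8%) were inside the middle quartiles of their bin, as 3 of 10. By definition as many of all genes lie inside these quartiles as outside. The count was not tested against that share. *Igf1*, with a GC content of 40.8%, was at -0.21 where its bin had a median of 0.26 and quartiles of 0.12 and 0.40. *Igfbp2*, with 59.5%, was at 0.20 in a bin with a median of -0.53. *Socs2* and *Bcl6* lay below the lower quartiles of their bins, which were -0.14 and -0.22. *Igfals* and *Stat5b* were just below their lower quartiles of -0.74 and -0.42, and *Jak2* above its upper quartile of 0.26. The part of GC content in these fold changes beyond this was not tested.

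**Figure D3:**
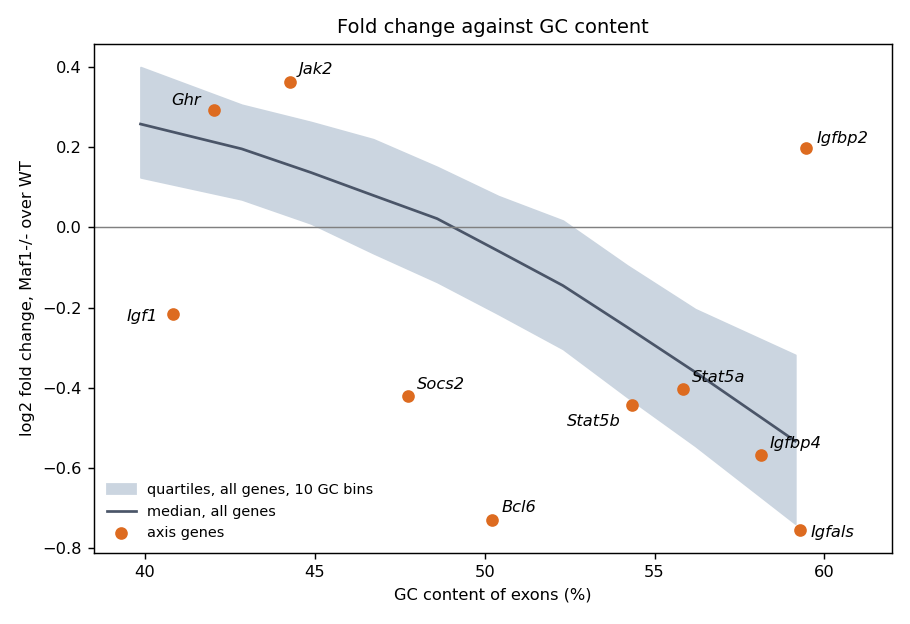
Log2 fold change, *Maf1*-/- over WT (y axis), against GC content of exons in percent (x axis), for the axis genes (orange points) over the median (line) and quartiles (band) of all genes in 10 GC bins. *Igf1* lies below the band at low GC content and *Igfbp2* above it at high GC content.

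Divided by exon length, the axis genes spanned a wide range of levels in WT. *Igfbp4* was highest at 8.42 ± 0.38 log2 CPM per kilobase of exon (SD, n = 7), above *Igfbp2* at 6.82 ± 0.76 in 7 of 7 libraries. *Ghr* at 6.03 ± 0.33 and *Igf1* at 5.97 ± 0.22 did not differ beyond their spread, with *Ghr* above in 4 of 7 libraries. *Igfals* followed at 5.04 ± 0.78. Among the signalling genes, *Stat5b* at 2.71 ± 0.42 and *Jak2* at 2.66 ± 0.26 were not separated, and *Stat5a* was lower at 0.71 ± 0.39. *Bcl6* at -0.13 ± 0.73 and *Socs2* at -0.34 ± 0.77 were lowest and not separated from each other.

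**Figure D4:**
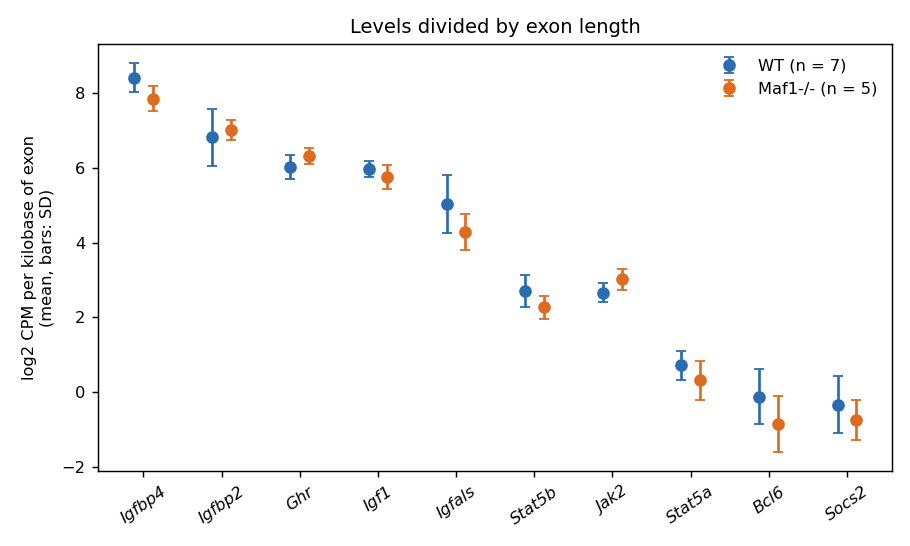
Level of each axis gene divided by exon length (y axis, log2 CPM per kilobase of exon), as mean and SD of 7 WT and 5 *Maf1*-/- libraries, in the order of the WT means. *Igfbp4* leads at 8.42 in WT, and *Bcl6* and *Socs2* are lowest at -0.13 and -0.34.

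Differences between axis genes within a library were compared for 6 pairs, chosen after the values had been seen. Neither the permutation p values nor the adjustment over 6 pairs covers that choice, in any of the settings below. *Stat5b* exceeded *Stat5a* by 1.99 ± 0.13 log2 units per length in WT and 1.95 ± 0.27 in *Maf1*-/- (exact permutation p = 0.75). *Ghr* minus *Igf1*, the receptor against the hormone, was 0.06 ± 0.42 in WT and 0.57 ± 0.24 in *Maf1*-/-, a difference of 0.51 (exact permutation p = 0.038, adjusted over the 6 pairs 0.11). *Igfbp4* minus *Igfbp2* was 1.60 ± 0.63 in WT and 0.83 ± 0.35 in *Maf1*-/-, a difference of -0.77 (exact permutation p = 0.037, adjusted 0.11). Without WT 2 these differences were 0.61 (exact permutation p = 0.013) and -0.74 (exact permutation p = 0.063), and after GC and length correction 0.54 (exact permutation p = 0.035) and -0.80 (exact permutation p = 0.030). *Igfals* minus *Igf1* differed by -0.54 with all libraries (exact permutation p = 0.25, adjusted 0.50), by -0.82 without WT 2 (exact permutation p = 0.037) and by 0.20 after correction (exact permutation p = 0.29), so its direction turned with the correction. The other pairs, *Jak2* minus *Ghr* and *Socs2* minus *Igf1*, had exact permutation p values of 0.57 and 0.67 with all libraries, 0.76 and 0.56 without WT 2, and 0.29 and 0.97 after correction. The lowest permutation p adjusted over the 6 pairs was 0.078 without WT 2 (*Ghr* minus *Igf1*) and 0.11 after correction.

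Of 16 other genes of growth hormone receptor signalling, 15 were measured and none passed, while 3 were lower and 1 higher at an unadjusted p under 0.05 (median log2 fold change -0.06). That is 4 of 15 (26.7%), beside 23.1% of all genes. *Cish*, a STAT5 target and brake like *Socs2*, was at -0.76 (SE 0.34, limma adjusted p = 0.21), and 3 of 5 *Maf1*-/- libraries were below every WT library. *Sh2b1*, an adaptor of JAK2, was at -0.82 (SE 0.32), *Stat3* at -0.44 (SE 0.18) and the phosphatase gene *Ptpn2* at 0.53 (SE 0.21). *Socs3* was at -0.33 (SE 0.30) and the prolactin receptor gene *Prlr* at 0.26 (SE 0.23). Without WT 2 none of the 15 passed, and 5 were lower and 2 higher at that p, beside 43.5% of all genes. After GC and length correction *Sh2b1* was at -0.27, *Cish* at -0.54 and *Ptpn2* at 0.28, and without *Maf1*-/- 5 *Cish* was at -0.44.

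Of 19 other genes of the IGF system, 13 were measured and none passed, with 1 lower and 1 higher at an unadjusted p under 0.05 (15.4%, beside 23.1% of all genes) and a median of 0.05. *Irs2*, an adaptor of the insulin and IGF1 receptors, was at -1.21 (SE 0.34, limma adjusted p = 0.19), and *Igfbp7* at 0.47 (SE 0.19). *Igfbp1*, a binding protein held down by insulin, was at -0.78 (SE 0.47), and *Igfbp3*, the main carrier in blood, at 0.42 (SE 0.24). The receptor genes *Igf1r* and *Insr* were at 0.09 (SE 0.19) and -0.05 (SE 0.10). Without WT 2, *Irs2* passed as lower, the only one of the 13, beside 6.79% of all genes. In that fit 2 were lower and 1 higher at an unadjusted p under 0.05, beside 43.5% of all genes. After GC and length correction *Irs2* was at -0.48 (SE 0.38) and *Igfbp7* at 0.89 (SE 0.31). *Igfbp1* was at -0.52 without WT 5 and *Igfbp3* at 0.25 without *Maf1*-/- 4.

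Growth hormone sets the sex bias of many mouse liver genes through STAT5 and BCL6. All 20 listed male-biased genes were measured, and 4 were lower and 0 higher at an unadjusted p under 0.05 (median log2 fold change -0.28), beside 13.2% of all genes lower. They were *Elovl3* at -0.53 (SE 0.19), *Susd4* at -0.67 (SE 0.28), *Cyp2f2* at -0.50 (SE 0.21) and *Cyp2u1* at -0.35 (SE 0.16). Of the 20 male-biased genes 14 had negative fold changes and the others positive ones. The summed level of the 20 was not lower, at 10390 to 18300 CPM in WT and 13130 to 18910 in *Maf1*-/-. Of 25 female-biased genes 16 were measured, and 1 was lower at that p (6.25%, beside 23.1% of all genes), *Cux2* at -0.53 (SE 0.19), which rested on 8 to 25 reads. *Abcd2* was at 0.73 (SE 0.35) and *Fmo2* at 0.39 (SE 0.21). Of 14 transcription factors that act beside STAT5 in liver, 5 were lower and 1 higher (42.9%, beside 23.1% of all genes), with a median of -0.26, which became 0.01 after GC and length correction. They included *Onecut1* at -0.99 (SE 0.37), *Rxra* at -0.69 (SE 0.26) and *Nr3c1*, the glucocorticoid receptor gene, at 0.28 (SE 0.11). None of these genes passed with all libraries. Without WT 2, 1 male-biased gene (*Cyp2f2*), 1 female-biased gene (*Cux2*) and 2 of the factors (*Rxra* among them) passed as lower, beside 6.79% of all genes. In that fit 5, 1 and 7 genes of the 3 lists were lower and 0, 0 and 1 higher at an unadjusted p under 0.05, beside 43.5% of all genes. After GC and length correction the median was -0.155 for the male-biased genes and 0.081 for the female-biased genes (0.131 before). *Elovl3* was then at -0.51, *Susd4* at -0.25, *Cyp2f2* at -0.31 and *Cyp2u1* at -0.14. *Cux2* was at -0.14, *Abcd2* at 0.52, *Fmo2* at 0.195, *Rxra* at -0.24, *Onecut1* at -0.49 and *Nr3c1* at 0.19.

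The summed levels of markers of other liver cells overlapped between the groups. In CPM the sum was 282.3 to 502.2 in WT and 298.0 to 433.1 in *Maf1*-/- for 8 Kupffer cell markers, 392.6 to 444.3 and 396.8 to 473.1 for 7 endothelial markers, and 434.9 to 642.8 and 527.7 to 781.1 for 8 stellate cell markers. It was 40.2 to 94.4 and 28.9 to 90.5 for 5 bile duct markers and 19.5 to 37.4 and 27.7 to 50 for 2 of 6 lymphocyte markers measured. Overlap of the sums does not show that the markers were unchanged. At an unadjusted p under 0.05, 2 of 8 stellate markers were higher (median log2 fold change 0.246). At that p, 1 of 5 bile duct markers (median -0.373) and 1 of the 2 lymphocyte markers were lower. No Kupffer cell or endothelial marker was counted, beside 23.1% of all genes. No marker was at 0 reads in any library. The part of these cells in the levels of the axis genes was not tested.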

How the data were processed

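RNA-seq libraries of perfused liver from 7 WT and 5 *Maf1*-/- mice were analysed, 1 per mouse, so the spread is that between animals. Reads were trimmed by the authors with cutadapt 1.8, filtered for ribosomal and low-complexity sequence, aligned to GRCm38 with STAR 2.5.2b and counted per gene with HTSeq 0.6.1, and libraries were scaled by TMM in edgeR 3.14.0. The deposited log2 values are labelled RPKM, but turned back they give, for each gene, a whole number of reads plus 0.5 relative to the scaled library size (log2 CPM), and gene length does not enter. A deposited table of pol III occupancy scores was not used here.

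*Maf1*-/- and WT were compared in R 4.3.3 with limma 3.58.1 without factors (the kind and number of the authors' factors are not given in the sources used here), with Benjamini-Hochberg adjustment over all 13304 genes. The fit was also run on simulated data with independent noise for each gene. These had no trend shared by the genes of a library, so the fit was not tested under such trends. Single values also had an exact two-sided permutation test over 792 divisions of the libraries, whose smallest p is 0.0013. Alternatives were 1 residual factor, library weights, a variance trend, voom weights, median centring, another pseudocount, a filter on low values, a replicate block, leaving out each library, and a loess correction (span 0.4) for exon GC content and length of the 93.82% of genes matched by identifier in the NCBIM37 annotation. Exon lengths came from that annotation and positions of genes from the table.

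The axis genes and the gene lists were chosen with earlier results of these data known. Named genes are the 10 axis genes, *Maf1* and *Gm35339*, *Igfbp1*, *Igfbp3*, *Cish*, *Socs3*, *Igf1r*, *Insr* and *Prlr*, the sex chromosome genes, and up to 4 genes of each other list with the smallest p, some of which are not reported here. Leaving out WT 2 together with the GC and length correction, and both settings for pairs, were chosen after seeing the data.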

Additional observations from a re-analysis of the deposited data

Results flagged for a closer look

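Of 88 groups of values compared, 16 had 1 sample far from the others of its group, and 12 of these samples were WT 2. Chance flags about 1 in 20 groups, and values of 1 library are not independent of each other. Among the axis genes, WT 2 was far below the other WT libraries for *Igfals* (4.93), *Igfbp4* (8.83), *Stat5a* (2.74) and *Stat5b* (4.22 log2 CPM). *Maf1*-/- 2 was far below the other *Maf1*-/- libraries for *Jak2*, at 4.87.

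Among other genes and within the WT libraries, WT 2 was lowest for *Sh2b1* (2.81), *Cyp2f2* (8.39), *Cux2* (-1.96) and *Rxra* (7.32), and highest for *Nr3c1* (7.44), *Ddx3y* (7.38) and *Uty* (5.73). WT 3 was far above the other WT libraries for *Elovl3* (7.23), and *Maf1*-/- 4 far below its group for *Cpt1a* (8.40). The GC slope of WT 2 was -0.569 log2 per 10 points, far below the other WT libraries. WT 1 was the deepest library, with 55787438 reads. What sets WT 2 apart was not tested.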

How the results depend on the processing

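With all libraries 2 genes passed. With 1 residual factor 1076 passed, with library weights 2019, after GC and length correction 1, with that and 1 factor 95, with the library GC slope as covariate 1, and with each library left out 2 to 904, the highest without WT 2. Of the axis genes 0 passed in the main comparison (limma, 2 at an unadjusted p under 0.05), 2 with 1 factor, 4 with library weights and 0 to 3 with each library left out, 3 of them without WT 2. The number at an unadjusted p under 0.05 was 7 with 1 factor, 5 with library weights, 4 with a variance trend, with voom weights, with a pseudocount of 1 and with a mean log2 above 1, 0 with the GC slope, 5 without WT 2 and with GC correction, and 1 to 7 with each library left out. The median log2 fold change of the 10 genes was -0.14 after GC correction with and without a factor and 0.014 with the GC slope. Signs turned with the GC slope for *Ghr* (-0.002), *Igfals* (0.073), *Stat5a* (0.061), *Stat5b* (0.031) and *Socs3* (0.26). *Socs3* was also positive after GC correction with and without 1 factor (0.16) and without WT 2 (0.11). *Insr* was at 0.05 with median centring, which added 0.10 to every log2 fold change. With each library left out *Insr* ranged from -0.094 to 0.023 (without *Maf1*-/- 4), and *Igf1r* from -0.062 (without *Maf1*-/- 2) to 0.223. After GC correction *Igfals* minus *Igf1* was at 0.20 and *Socs2* minus *Igf1* at 0.016, both negative before. The cause was not tested. *Igf1*, *Igfbp2*, *Igfbp4*, *Socs2*, *Jak2* and *Bcl6* kept their sign in all 25 settings. Not all of these settings could turn a sign. The residual factor, the variance trend and the filter on low values leave each fold change as it was. With each library left out, most libraries are shared with the main comparison. *Socs2* and *Bcl6* rest on the fewest reads, which limits their precision.

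Replicate numbers 1 to 5 are shared by name only, and deviations of same-numbered libraries correlated at 0.23, -0.46, -0.18, -0.03 and -0.07. The replicate block was fitted on libraries 1 to 5 of each group, so WT 6 and WT 7 were left out. With it 1 gene passed and 0 of the axis genes had an unadjusted p under 0.05. With the block and the GC correction 0 genes passed, 1 axis gene had an unadjusted p under 0.05, the median was -0.13 and *Socs3* was at 0.28.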

Other observations

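Feeding state is read in liver from genes that follow insulin and fasting, which also act on the growth hormone axis. Of 11 such genes 2 were lower and 0 higher at an unadjusted p under 0.05, beside 23.1% of all genes, and none passed. They were *Fgf21*, a hormone of the fasted liver known to oppose growth hormone signalling, at -2.0 (SE 0.74, limma adjusted p = 0.19) on 1 to 131 reads, and *Angptl4* at -0.80 (SE 0.31, limma adjusted p = 0.20). *Maf1*-/- 4 moved both, since without it they were at -1.11 and -0.46, and with a pseudocount of 1 *Fgf21* was at -0.77. *Cpt1a* was at -0.28 (SE 0.13) and *Ppargc1a* at 0.28 (SE 0.17). Without WT 2 none of the 11 passed, and 4 were lower at that p, beside 43.5% of all genes.

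The Y chromosome genes *Ddx3y*, *Eif2s3y*, *Kdm5d* and *Uty* had reads in all 12 libraries, as in male mice. The fewest for any of them in a library were 861, for *Kdm5d*. Their log2 fold changes were 0.51 (SE 0.14), 0.43 (SE 0.16), 0.45 (SE 0.16) and 0.48 (SE 0.16), with limma adjusted p values of 0.19 each, and the median of the 4 went from 0.47 to 0.17 after GC and length correction. Without WT 2, *Ddx3y* and *Uty* passed as higher in *Maf1*-/-, beside 6.79% of all genes passing.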
